A study of Mus musculus with 2 samples.

Results

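The 10 genes described here encode enzymes of glycolysis, and they were taken as a list of symbols from the 25778 genes of the deposited count table. They are the hexokinases Hk1 and Hk2, the aldolases Aldoa and Aldoc, the phosphoglycerate kinase Pgk1, the enolases Eno1 and Eno2, the pyruvate kinase Pkm, and the lactate dehydrogenase subunits Ldha and Ldhb. All 10 were present in the table. Their levels were read in photoreceptors (rods and cones), in inner neurons and in Müller glia (MG) of the mouse retina, from single-cell RNA sequencing at postnatal day 30 (P30). The inner neurons were bipolar cells (BC), amacrine cells (AC), horizontal cells (HC) and retinal ganglion cells (RGC). The first library came from a Ptbp1-Ctrl mouse with the genotype Chx10-Cre, and the other from a Ptbp1-KO mouse with the genotype Chx10-Cre;Ptbp1lox/lox. Chx10-Cre is a transgene that makes Cre recombinase in retinal progenitors, and both mice carried it. In Ptbp1-KO mice Cre removes the promoter and the first exon of Ptbp1, which encodes an RNA-binding protein that regulates splicing. With 1 mouse per genotype there was no replicate check of any difference between genotypes, and genotype, animal, dissociation and library cannot be told apart.

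Glycolysis splits glucose into pyruvate in the cytosol. Hexokinase traps glucose in the cell, aldolase cleaves the phosphorylated sugar, phosphoglycerate kinase and pyruvate kinase make ATP, and enolase acts between those steps. Lactate dehydrogenase then turns pyruvate into lactate and regenerates the oxidised cofactor that the pathway needs, with the Ldha subunit usually linked to lactate production and the Ldhb subunit to lactate use. The retina is known for making lactate from glucose in the presence of oxygen, and photoreceptors, with their constant renewal of outer segments, are held to be its main site, while Müller glia are held to exchange glucose, lactate and glycogen-derived fuel with them.

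The Ptbp1-Ctrl library held 16421 cells and 32758836 unique molecular identifiers (UMIs, each a counted transcript), and the Ptbp1-KO library held 14522 cells and 35328593 UMIs. Levels are in CPM, meaning counts of a gene per 1000000 counted transcripts summed over the cells of a type and library, and a value in parentheses is its exact Poisson interval at 95%. All intervals cover counting error only. For the 10 genes the upper bound lay 1.59% to 12.1% above the value in rods, at most 23.8% above it in cones, at most 19.3% in BC, AC and MG, and up to 156% in HC, of which there were 17 and 7. Summed rod markers in BC, AC and MG reached 13.9% to 17.5% of their level in rods, in cones 24.7% and 25.7%, and in cells labelled RGC 63.8% in Ptbp1-Ctrl and 87.3% in Ptbp1-KO. The values of RGC are therefore given apart. In every type, RGC included, the summed level of the type's own markers was highest in that type. The margin was smallest for rods, at 1.57-fold and 1.15-fold over RGC, and for AC of Ptbp1-Ctrl, at 1.18-fold over HC. Among the cells counted above, 63 barcodes occurred in both libraries. The Ptbp1-Ctrl library held 825 UMIs of Ptbp1 itself, and the Ptbp1-KO library 14. The study's methods call both mice female, but both libraries held UMIs of the Y-linked genes Ddx3y, Eif2s3y, Kdm5d and Uty (43.1 to 201 CPM), and Xist had 5 and 6 UMIs, which bears on the X-linked Pgk1.

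Hk1 and Hk2, hexokinases of the entry step, were higher in rods than in BC, AC and MG. Hk1, the broadly used neuronal hexokinase, stood at 365 CPM (355 to 376) in Ptbp1-Ctrl rods and 375 CPM (365 to 385) in Ptbp1-KO rods. It was 241 CPM in the cones of both libraries, 214 and 229 CPM in BC, 161 and 169 CPM in AC, and 104 and 102 CPM in MG, the first value being Ptbp1-Ctrl here and throughout. Among these 5 types the order was thus rods, then cones and BC, whose intervals overlapped, then AC, with MG lowest. Hk2, a form of hexokinase typical of highly glycolytic cells, reached 583 CPM (548 to 620) and 658 CPM (617 to 701) in cones. It was 338 CPM (328 to 348) and 305 CPM (296 to 314) in rods. Outside the photoreceptors Hk2 stood at 88.9 and 74.8 CPM in BC, 62.9 and 56.8 CPM in AC, and 53.5 and 37.2 CPM in MG. Cones exceeded rods 1.73-fold in Ptbp1-Ctrl and 2.16-fold in Ptbp1-KO, and they exceeded MG 10.9-fold and 17.7-fold. HC had 36.1 CPM of Hk2 from 4 UMIs in Ptbp1-Ctrl and 0 UMIs in Ptbp1-KO, for which a limit of 3 counts is 70 CPM and the Poisson bound 86.1 CPM.

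The same order held for the share of cells in which Hk2 was detected. At least 1 Hk2 UMI was seen in 73.1% and 77.0% of cones, 33.6% and 34.6% of rods, 18.9% and 18.8% of BC, 15.2% and 17.5% of AC, and 14.4% and 12% of MG. Rods were the shallowest of these types, with medians of 1088 and 1288 UMIs per cell against 3333 and 4178 in MG, so 1000 UMIs were drawn at random from every cell that had as many, which dropped 4155 and 3126 rods. The thinned shares were 46.9% and 44.2% in cones, 27.6% and 24.9% in rods, 7.59% and 7.10% in BC, 6.88% and 5.83% in AC, and 4.45% and 2.98% in MG. No type known to lack Hk2 was available as a background. Among the types listed here, the share in MG is thus the lowest level against which the others can be read.

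Hk2, and Ldhb at the other end of the pathway, each have a single start in the RefSeq promoter table. The 250 bases before that start are shown because these were the genes past 2-fold, in opposite directions, between photoreceptors and the sum of inner neurons. By single types Ldhb was not the reverse of Hk2, since BC had as little Ldhb as rods or less. Both are on the minus strand of build GRCm38.p6 (mm10), Hk2 at chr6:82774455-82774704 and Ldhb at chr6:142507958-142508207, and both are printed 5′ to 3′ in the direction of the gene. Capitals mark ACGTG, the core of the hypoxia response element, and GGGCGG, the GC box, each searched on both strands (reverse complements CACGT and CCGCCC).
Hk2: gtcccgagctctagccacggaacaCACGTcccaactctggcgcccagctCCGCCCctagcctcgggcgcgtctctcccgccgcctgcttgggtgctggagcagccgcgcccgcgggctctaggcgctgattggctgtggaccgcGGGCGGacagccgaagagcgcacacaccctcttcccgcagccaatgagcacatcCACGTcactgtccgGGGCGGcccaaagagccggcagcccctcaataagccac
Ldhb: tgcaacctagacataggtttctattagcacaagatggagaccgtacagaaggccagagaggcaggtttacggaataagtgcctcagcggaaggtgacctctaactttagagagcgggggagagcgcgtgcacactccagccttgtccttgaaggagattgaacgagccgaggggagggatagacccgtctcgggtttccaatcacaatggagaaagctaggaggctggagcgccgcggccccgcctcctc
The Hk2 window held ACGTG at 2 positions and GGGCGG at 3, and the Ldhb window held neither. Among all 32851 promoter windows of this length, 16.6% held the former and 32.7% the latter. The core TAATCC bound by the photoreceptor factors Crx and Otx2 occurred in neither window and in 6.25% of all windows. The E-box CACGTG, which overlaps ACGTG, occurred in neither window and in 6.02% of all. Over all windows of a gene, ACGTG occurred in 5 of the 10 genes and GGGCGG in 7, beside 18.5% and 35.4% of 27025 genes. Hk1, also higher in photoreceptors than in inner neurons, held neither. Ldha and Pgk1 held both, Ldha being higher in photoreceptors than in inner neurons and Pgk1 lower. A link between matches and levels was not tested. A match is a description of the letters and no evidence of binding.

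The aldolases divided neurons from glia. Aldoa, the common form of the enzyme that splits fructose bisphosphate, stood at 1189 and 907 CPM in rods, 1135 and 920 CPM in cones, 1156 and 1094 CPM in BC, 1207 and 1367 CPM in AC, and 589 and 555 CPM in MG. Rods, cones, BC and AC of Ptbp1-Ctrl differed by little, and HC were highest at 2410 CPM (2130 to 2717) and 1960 CPM (1564 to 2427). Aldoc, the form known in brain as a marker of astrocytes, showed the reverse, with 493 CPM (475 to 511) and 554 CPM (534 to 575) in MG. It was 109 and 86.0 CPM in rods, 94.5 and 84.9 CPM in cones, 119 and 108 CPM in BC, and 128 and 142 CPM in AC. The table also held a second row named Aldoa, with 21.9 and 34.5 CPM in rods and at most 9.17 CPM in cones, BC, AC and MG, and the annotation places 2 genes of that name next to each other on chromosome 7. Which row belongs to which is not stated, and the values above are those of the row with the higher counts.

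Pgk1, which makes the first ATP of the pathway and lies on the X chromosome at chrX:106187100-106203699, was higher in inner neurons than in photoreceptors. It stood at 242 and 227 CPM in BC and 269 and 256 CPM in AC, against 169 CPM (162 to 176) and 123 CPM (117 to 129) in rods and 195 CPM (175 to 217) and 117 CPM (100 to 136) in cones. MG had 164 and 183 CPM. The intervals of rods and MG overlapped in Ptbp1-Ctrl but not in Ptbp1-KO, where MG lay above rods and cones.

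Enolase also divided glia from neurons, in opposite directions for its forms. Eno1, the form found in most tissues, reached 2094 CPM (2057 to 2131) and 2422 CPM (2379 to 2465) in MG. It was 471 and 374 CPM in rods, 393 and 330 CPM in cones, 302 and 295 CPM in BC, and 429 and 415 CPM in AC. Eno2, the neuronal enolase, was lowest in MG at 38.3 CPM (33.4 to 43.6) and 37.8 CPM (32.6 to 43.5). It stood at 106 and 114 CPM in rods, 245 and 227 CPM in cones, 161 and 183 CPM in BC, and 177 and 192 CPM in AC, so cones had more Eno2 than rods in both libraries. Eno1b, a retrocopy of Eno1 whose reads could be divided with it, had 23.4 and 31.7 CPM in MG and at most 7.67 CPM in rods, cones, BC and AC.

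Pkm, which makes pyruvate and the last ATP of the pathway, followed the order rods, cones, BC, AC and MG in both libraries. Its levels were 1005 and 787 CPM in rods, 852 and 729 CPM in cones, 722 and 666 CPM in BC, 581 and 584 CPM in AC, and 400 and 372 CPM in MG. Neighbours in that order had separate intervals except rods and cones of Ptbp1-KO. Pkm transcripts carry either of a pair of mutually exclusive exons, a choice known to be controlled by PTBP1, and counts per gene from the 3′ ends of transcripts do not tell the forms apart.

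Lactate dehydrogenase ended the pathway with opposite patterns of its subunits. Ldha stood at 819 CPM (804 to 835) and 673 CPM (660 to 686) in rods and at 699 and 613 CPM in cones, against 459 and 350 CPM in BC, 452 and 414 CPM in AC, and 286 and 277 CPM in MG. Ldhb was 22.5 CPM (20 to 25.2) and 26.1 CPM (23.6 to 28.9) in rods and 60.7 and 58.9 CPM in cones. BC, at 19.9 and 17.5 CPM, were as low as rods or lower, while AC had 221 and 233 CPM and MG 213 and 187 CPM. The inner neurons were thus not uniform in Ldhb, which was low in rods and BC, intermediate in cones, and high in AC and MG.

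**Figure D1:**
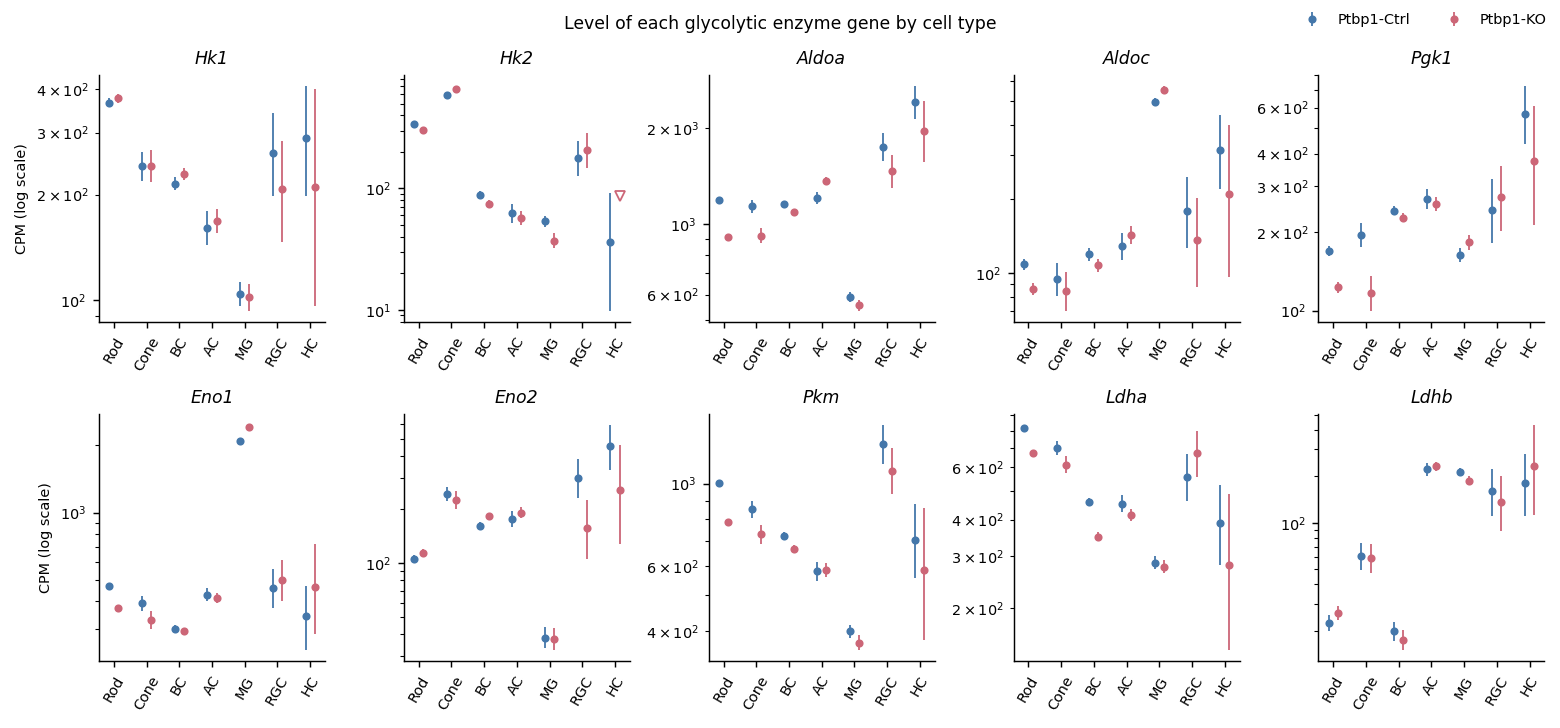
Level of each of the 10 genes (CPM, log axis with its own range in each panel) in 7 cell types of the Ptbp1-Ctrl (blue) and Ptbp1-KO (red) libraries. Points are values of 1 library and lines their exact Poisson intervals at 95%, and the open triangle is the upper Poisson bound for a count of 0. Hk2 is high in both photoreceptor types, at 305 to 658 CPM, and Eno1 in MG, at 2094 and 2422 CPM.

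In RGC the levels of Hk1 (263 and 207 CPM), Hk2 (178 and 207 CPM) and Ldha (559 and 670 CPM) lay between those of AC and the highest photoreceptor value, and Pkm reached 1277 and 1084 CPM. The rod markers in these cells were at 63.8% and 87.3% of their level in rods, and their part in these values was not tested.

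To compare the classes, UMIs were summed over rods and cones, a sum that is mostly rods, and over the 4 types of inner neurons. Only 1 of the 10 genes was at least 2-fold higher in photoreceptors than in inner neurons in both libraries. This was Hk2, at 367 CPM (357 to 377) against 85.8 CPM (80.6 to 91.1) in Ptbp1-Ctrl and 337 CPM (328 to 346) against 71.4 CPM (67.1 to 75.9) in Ptbp1-KO. Of 15744 genes with at least 20 UMIs, 10.7% were that much higher. On the log2 scale the ratios of Hk2 were 2.10 (2.0 to 2.19) and 2.24 (2.14 to 2.33), or 4.28-fold and 4.71-fold. When the profile of all cells of a library, scaled to the level of the markers of other types, was subtracted from each type as an estimate of free RNA, these ratios were 3.24 and 3.35. Hk1 was 1.69-fold and 1.71-fold higher and Ldha 1.75-fold and 1.80-fold higher, both short of 2-fold, and Pkm 1.39-fold and 1.20-fold.

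Again only 1 of the 10, Ldhb, was at 50% or less of the inner neuron level in both libraries, as were 22.4% of all genes. Its log2 ratios were -1.07 (-1.25 to -0.89) and -1.42 (-1.57 to -1.26). With RGC and HC left out, the ratios of Ldhb were -0.99 and -1.39, and with equal weight for rods, cones, BC and AC they were -0.85 and -0.70, so that no gene was called lower. Pgk1 and Eno2 were also below the inner neurons, with ratios of -0.53 and -0.95 for Pgk1 and of -0.46 and -0.58 for Eno2. Aldoa had a ratio of 0.00 in Ptbp1-Ctrl, with an interval on both sides of 0, and of -0.37 (-0.40 to -0.34) in Ptbp1-KO. The median ratio of the 10 genes was 0.24 in Ptbp1-Ctrl and -0.10 in Ptbp1-KO, beside -0.05 and -0.03 over all 15744 genes.

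Against MG the genes parted into distinct sets. Hk1, Hk2, Eno2, Pkm and Ldha, 5 of the 10, were at least 2-fold higher in photoreceptors in both libraries, beside 16.8% of 14916 genes. Pkm fell short of 2-fold in a library, leaving 4 genes, with either other scaling of the sums or with the mean of per-cell CPM. The ratios ranged from 1.30 and 1.07 for Pkm to 2.78 (2.61 to 2.95) and 3.18 (2.97 to 3.4) for Hk2. With free RNA subtracted as above, the ratio of Hk2 in Ptbp1-Ctrl was 4.19, no Hk2 was left in MG of Ptbp1-KO, and the ratios of Eno2 were 2.62 and 3.36 in place of 1.68 and 1.72. Aldoc, Eno1 and Ldhb, 3 of the 10, were at 50% or less, beside 22.2% of all genes. MG exceeded photoreceptors 4.60-fold and 6.46-fold for Aldoc, 4.54-fold and 6.54-fold for Eno1, and 7.88-fold and 6.44-fold for Ldhb. Aldoa was 2.01-fold higher in photoreceptors in Ptbp1-Ctrl and 1.64-fold higher in Ptbp1-KO. Pgk1 had a ratio of 0.07 (-0.03 to 0.18) in Ptbp1-Ctrl and -0.58 (-0.69 to -0.46) in Ptbp1-KO, and was not called.

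**Figure D2:**
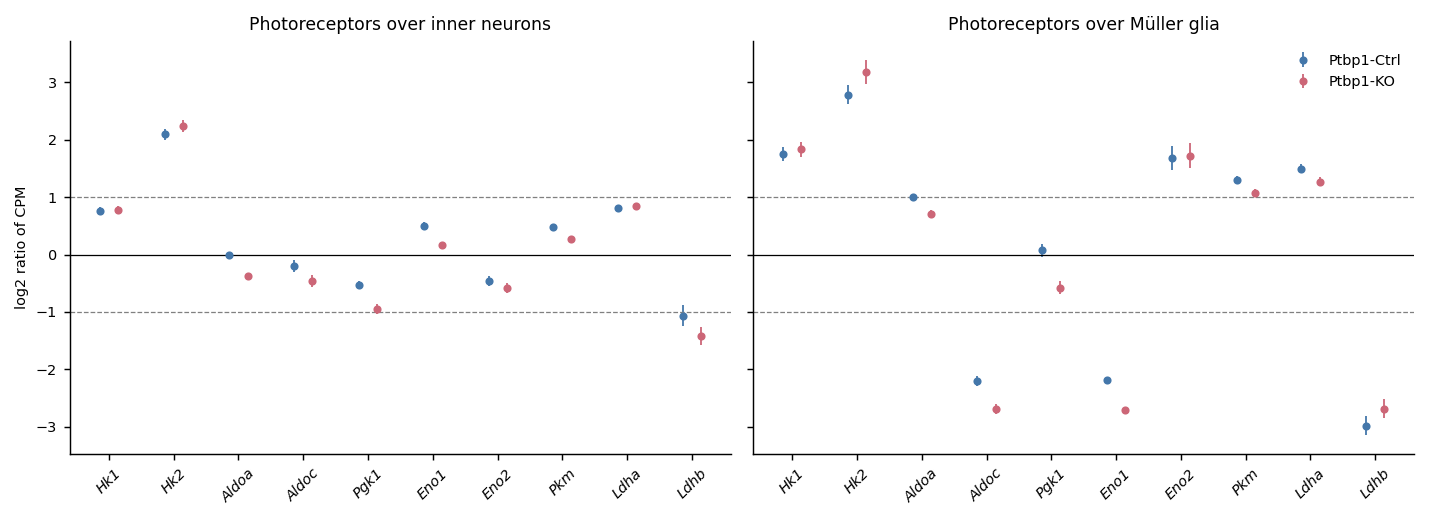
Log2 ratio of the level in photoreceptors over that in inner neurons (left) and over that in MG (right) for the 10 genes, with exact conditional binomial intervals at 95%. Dashed lines mark a 2-fold difference. Against inner neurons Hk2 lies above the upper line and Ldhb below the lower one, and against MG 5 genes lie above and 3 below in both libraries.

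A stricter reading asks that rods and cones each lie above BC, AC and MG, all in both libraries, whatever the size. Hk1, Hk2, Pkm and Ldha met it, 4 of the 10, and 16.4% of 10460 genes did. Aldoc, 1 of the 10, had rods and cones each below those types, as did 15.6% of the genes. Of these 4 genes, Hk1 and Hk2 encode forms of the first enzyme, Pkm the enzyme that makes pyruvate and Ldha the subunit linked to lactate production. Hkdc1, another hexokinase gene, was lower in photoreceptors than in MG, as given below.

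Isozyme pairs were compared as the share of the UMIs of the pair, which is read between cell types and not as a ratio of protein. Hk2 took 70.8% (68.4 to 73.1) and 73.2% (70.7 to 75.6) of the hexokinase pair in cones and 48.0% and 44.8% in rods, and 24.6% to 33.9% in BC, AC and MG. Aldoc took 45.5% and 50% of the aldolase pair in MG and 7.69% to 9.61% in rods, cones, BC and AC. Eno2 took 1.79% and 1.53% of the enolase pair in MG, 18.4% and 23.4% in rods, and 29.2% to 40.7% in cones, BC and AC. Rods thus stood between MG on one side and cones, BC and AC on the other in their enolase pair. Ldhb took 2.67% and 3.74% of the lactate dehydrogenase pair in rods, 4.16% and 4.76% in BC, 7.99% and 8.77% in cones, 32.9% and 36.0% in AC, and 42.7% and 40.3% in MG.

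**Figure D3:**
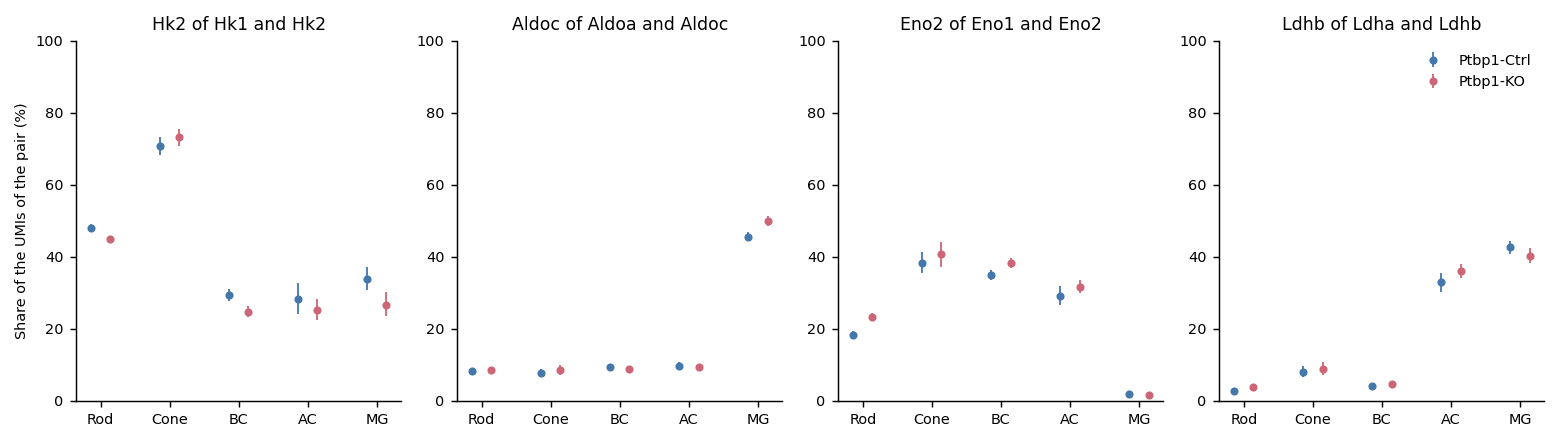
Share of the UMIs of each isozyme pair (%) taken by the first named gene in 5 cell types of each library, with exact Clopper-Pearson intervals at 95%. Hk2 takes the largest share in cones (70.8% and 73.2%), Aldoc and Ldhb in MG, and Eno2 takes under 2% in MG alone.

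The types were not uniform inside. The study divided rods into 4 clusters, which were formed from these same cells, so the differences between clusters are a description. Pkm ran from 475 CPM in cluster 0 to 1959 CPM in cluster 3 of Ptbp1-Ctrl, and from 408 to 1783 CPM in Ptbp1-KO. Aldoa ran from 686 to 2051 CPM between the same clusters of Ptbp1-Ctrl, and Eno1 from 278 CPM in cluster 1 to 761 CPM in cluster 3. Hk2 was nearly level in Ptbp1-Ctrl, at 313 to 366 CPM, and so was Eno2 at 94.2 to 117 CPM. The summed rod markers also differed, at 14620 CPM in cluster 0 and 58052 CPM in cluster 3, as did median UMIs per cell, at 936 and 1431, and the median share of mitochondrial UMIs, at 0.66% and 5.12%, and their part in these differences was not tested. Cluster 3 held 18.2% of Ptbp1-Ctrl rods and 10.5% of Ptbp1-KO rods.

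**Figure D4:**
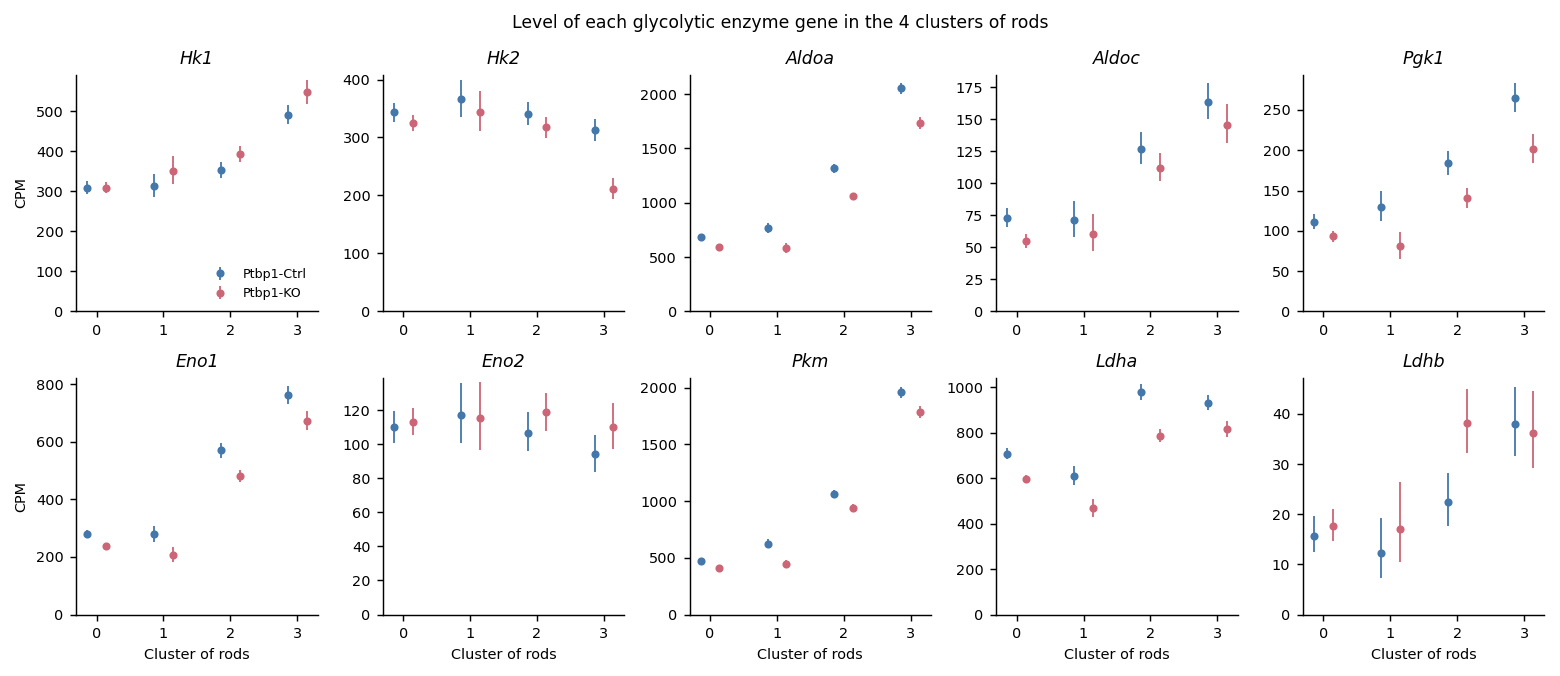
Level of each of the 10 genes (CPM, linear axis from 0) in the 4 clusters of rods in the Ptbp1-Ctrl (blue) and Ptbp1-KO (red) libraries, with exact Poisson intervals at 95%. Pkm, Aldoa and Eno1 are highest in cluster 3, while Hk2 and Eno2 stay near 1 level in Ptbp1-Ctrl, and Hk2 drops in cluster 3 of Ptbp1-KO only, to 211 CPM.

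Among the 10 clusters of BC, Hk2 ranged from 38.3 CPM in cluster 19 to 334 CPM in cluster 21 of Ptbp1-Ctrl and from 33.2 to 397 CPM in Ptbp1-KO, where the same clusters were the extremes. Cluster 21 of BC thus held as much Hk2 as rods in Ptbp1-Ctrl and more in Ptbp1-KO. It was small, with 118 and 81 cells, and its median UMIs per cell were 5432.5 and 7191 against 2777 and 3818 over all BC, and their part in this value was not tested. Aldoc ranged from 29.3 CPM in cluster 5 to 250 CPM in cluster 13 of Ptbp1-Ctrl, and Ldhb from 5.11 to 49.4 CPM. Among AC, Aldoc was 41.8 and 27.9 CPM in cluster 14 and 200 and 209 CPM in cluster 6. Cluster 16 of MG, 14.2% and 11.5% of MG, stood apart from the main cluster 4, with 461 against 2300 CPM of Eno1, 103 against 531 CPM of Aldoc and 32.4 against 236 CPM of Ldhb in Ptbp1-Ctrl. The same clusters of Ptbp1-KO had 449 against 2619 CPM of Eno1. Median UMIs per cell were 1314 in cluster 16 and 3475 in cluster 4 of Ptbp1-Ctrl, and summed rod markers were 9641 and 4545 CPM, and their part in these differences was not tested.

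The libraries differed little in most of these genes. Of 50 pairs of a gene and a cell type (rods, cones, BC, AC and MG), 2 reached a log2 ratio of Ptbp1-KO over Ptbp1-Ctrl of 0.5 in size. They were Pgk1 in cones, at 195 and 117 CPM with a ratio of -0.74 (-1.01 to -0.47), and Hk2 in MG, at 53.5 and 37.2 CPM with a ratio of -0.53 (-0.79 to -0.26). Of genes at a mean of 10 CPM or more, 14.6% reached that size in cones and 7.45% in MG, and 4.58% in rods, 2.88% in BC and 8.94% in AC, where none of the 10 did. The shares of 1 in 10 in cones and in MG lay near those backgrounds. Hk2 in MG rested on 316 and 189 UMIs. Its level was 48.3 and 33.4 CPM in the main MG cluster, where the summed rod markers also differed, at 4545 and 3678 CPM, and their part in the value was not tested. Without the 10% of cells with the most markers of other types, the ratio of Hk2 in MG was -0.44, and with the same mix of clusters in both libraries -0.49, both just short of 0.5 in size.

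In rods 7 of the 10 genes were lower in Ptbp1-KO, beside 43.2% of all genes, and the median ratio of the 10 was -0.31 beside 0.03 over 8877 genes. The ratios were -0.46 (-0.55 to -0.37) for Pgk1, -0.39 (-0.42 to -0.36) for Aldoa, -0.35 (-0.39 to -0.32) for Pkm, -0.34 for Aldoc, -0.33 for Eno1, -0.28 for Ldha and -0.15 for Hk2. Hk1, Eno2 and Ldhb had ratios of 0.04, 0.10 and 0.22. The 7 genes were lower in each of the 4 rod clusters, as were 14.0% of 9247 genes. With the clusters given the same weights in both libraries, the ratios were -0.38 for Pgk1, -0.27 for Aldoa, -0.18 for Pkm and -0.22 for Eno1. Hk2 differed mostly in cluster 3, at 313 and 211 CPM with a ratio of -0.57 (-0.72 to -0.41), beside -0.08 to -0.10 in the other clusters.

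The median ratio of the 10 genes was -0.17 in cones, -0.10 in BC, 0.04 in AC and -0.04 in MG. In MG Eno1 and Aldoc were higher in Ptbp1-KO, with ratios of 0.21 (0.17 to 0.25) and 0.17 (0.10 to 0.25), while Ldhb had -0.18 (-0.31 to -0.06). Eno1 and Aldoc were each higher in 2 of 3 MG clusters. Eno1 had a ratio of -0.04 in cluster 16, and Aldoc -0.36 (-0.69 to -0.03) in cluster 22. In BC the lowest ratio was that of Ldha, at 459 and 350 CPM, or -0.39 (-0.46 to -0.33), and it was lower in 9 of 10 clusters. Eno2 in BC, at 161 and 183 CPM, was higher in Ptbp1-KO in all 10 clusters, with ratios of 0.04 to 0.39, as were 2.31% of the 4988 genes with enough UMIs.

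**Figure D5:**
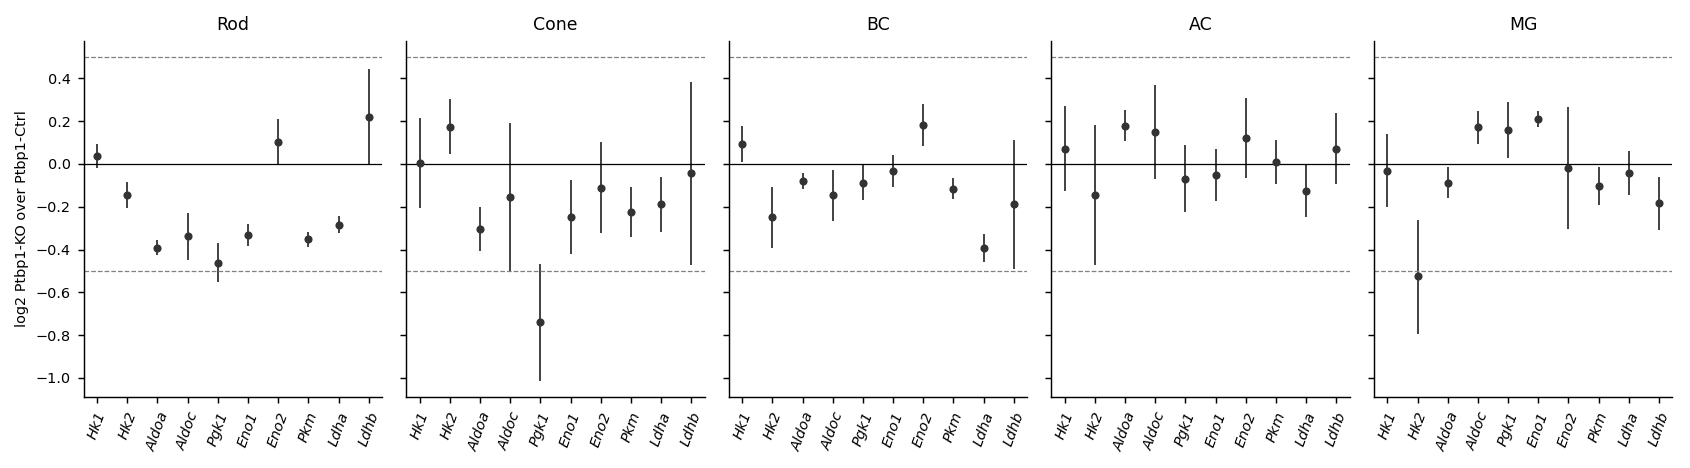
Log2 ratio of the level in Ptbp1-KO over that in Ptbp1-Ctrl for the 10 genes in 5 cell types, with exact conditional binomial intervals at 95% that cover counting error only. Dashed lines mark ratios of 0.5 in size. Only Pgk1 in cones (-0.74) and Hk2 in MG (-0.53) lie beyond them, and 7 genes lie below 0 in rods.

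Cox7b, Magt1 and Atp7a, all on the same side of Pgk1 on the X chromosome, differed between the libraries in rods, cones, BC, AC and MG. Cox7b, a subunit of cytochrome oxidase whose annotated end is at position 106022450, stood at 470 and 207 CPM in rods and had ratios of -1.18 in rods, -1.19 in cones, -1.21 in BC, -1.23 in AC and -1.37 in MG. Magt1 had -0.85 in MG and -1.44 to -1.83 in the other types, and Atp7a had -0.46 in rods, -0.54 in MG and -0.99 to -1.02 in the rest. Atrx had ratios of -0.17 to 0.18, and Taf9b, on the other side of Pgk1, had under 10 CPM in these 5 types. Pgk1 did not follow Cox7b, Magt1 and Atp7a across types. Its ratios were -0.46 in rods and -0.74 in cones but -0.09, -0.07 and 0.16 in BC, AC and MG. The part of a difference near this locus in the values of Pgk1 was not tested.

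The rest of the pathway was read from lists of other glycolytic enzymes, regulators, glucose and lactate carriers, pyruvate entry, NADH shuttles and glycogen. Of 46 of these genes with enough UMIs, 3 were at least 2-fold higher in photoreceptors than in inner neurons in both libraries and 12 were at 50% or less, beside the 10.7% and 22.4% of all genes above. Against MG, 9 of 45 were higher and 13 lower by that measure, beside 16.8% and 22.2% of all genes. Other glycolytic enzymes held 0 of 13 genes above inner neurons and 4 below, with a median ratio of -0.80 and -0.74. Those below included the phosphofructokinases Pfkm and Pfkp, and Tpi1, the triose phosphate isomerase. Tpi1 stood at 123 and 93.8 CPM in rods and 518 and 473 CPM in BC, and Pfkp at 98.8 and 80.0 CPM in rods and 248 and 232 CPM in BC. Against MG the 2 called lower were Hkdc1, at 33.7 and 37.2 CPM in MG, and Pfkm.

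Among the regulators, Pfkfb2, which sets the level of the activator of phosphofructokinase, stood at 550 and 531 CPM in rods, 265 and 246 CPM in cones, 112 and 96.2 CPM in BC and 87.4 and 69.8 CPM in MG. Tigar, which opposes it, was 40.3 and 46.4 CPM in rods and 14.7 and 17.5 CPM in BC. Both were higher than in inner neurons, and Hif1a and Pfkfb1 joined them against MG, where 4 of 6 were higher. Pfkfb3 was lower in photoreceptors, at 1.61 and 1.66 CPM in rods, and reached 208 and 163 CPM in HC.

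Of the carriers, Slc16a1, a lactate carrier, stood at 194 and 173 CPM in rods, 150 and 119 CPM in cones and 196 and 214 CPM in MG, against 40.4 and 33.7 CPM in BC. Slc16a7, Slc2a3 and Slc16a3 were lower than in inner neurons, with Slc16a7 at 1.53 and 1.72 CPM in rods and 77.0 and 67.8 CPM in BC. Slc2a1, the glucose carrier, stood at 51.8 and 45.9 CPM in rods and 202 and 243 CPM in MG, and Bsg, the partner of lactate carriers, at 305 and 246 CPM in rods and 1711 and 1927 CPM in MG. Slc16a3 was the 1 carrier higher in photoreceptors than in MG, at 11.4 and 4.90 CPM in rods, and Slc16a7 and Slc2a3 were lower there too.

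For pyruvate entry, Mpc1, a subunit of the mitochondrial pyruvate carrier, was 53.8 and 46.3 CPM in rods, 115 and 105 CPM in BC and 177 and 151 CPM in MG, and Pdk1, a brake on pyruvate dehydrogenase, 1.99 and 2.48 CPM in rods and 30.1 and 29.0 CPM in BC. Pdk2 was lower than in MG and Pdk3 higher. For the NADH shuttles, Got1, Got2 and Slc25a12 of the malate-aspartate shuttle were higher than in MG, with ratios of 1.40 to 2.21, which makes 3 of 8 genes of that list, and none of the 8 was 2-fold higher than in inner neurons. Gpd2 was lower than in inner neurons. The glycogen genes Pygb, Gbe1 and Gyg were lower than in MG with ratios of -3.25 to -4.45, Gbe1 standing at 53.5 and 33.2 CPM in rods and 524 and 709 CPM in MG, and Gyg was also lower than in inner neurons.

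For each of the 10 genes, the gene outside all these lists with the most similar pattern was sought among 4374 genes, as the Pearson correlation of log2(CPM + 1) over 10 sums (5 types in 2 libraries). The sums share libraries and depth, so the values only describe. The closest were Crxos to Hk2 (0.996), Gtf2ird1 to Hk1 (0.993), Cp to Eno1 (0.995), Abca8a to Aldoc (0.989), Atp6v1b2 to Eno2 (0.987), Hnrnpc to Pkm (0.985), Psmc6 to Ldha (0.983), Pole4 to Ldhb (0.977), Hnrnpul2 to Aldoa (0.972) and Gadd45gip1 to Pgk1 (0.923). Among the 10 themselves Eno1 and Aldoc were alike (0.965), as were Hk1 and Pkm (0.945) and Pkm and Ldha (0.923), while Eno1 and Eno2 ran in opposite directions (-0.928). Pgk1 had the least similar partner of the 10.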

How the data were processed

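Whole retinas of P30 mice, 1 Ptbp1-Ctrl and 1 Ptbp1-KO, were profiled with the 10x 3′ chemistry. The deposited values are whole UMI counts per gene and cell, with cell type, cluster and the percent of mitochondrial UMIs per cell in the table deposited by the authors. Cell Ranger 7.0.1, Seurat 4 and mm10 are named in the submitters' processing notes. The annotation and the counting of intronic reads are not given in the sources used here. The study kept cells with over 200 and under 5000 genes, over 700 and under 10000 UMIs and under 20% mitochondrial UMIs, and all 30943 deposited cells lay inside these limits. A further 2 columns of values per cell were not used.

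Counts were summed by cell type and library and divided by the total (CPM). Levels have exact Poisson intervals, ratios exact conditional binomial intervals and shares exact Clopper-Pearson intervals, all at 95% and for counting error only. No test was run between genotypes, since each had 1 library and cells are not replicates. For that reason the rank test over cells in the study's methods was not used. Class ratios needed 20 UMIs and were called at 2-fold in both libraries, and genotype ratios at 0.5 on the log2 scale, with a background of genes at a mean of 10 CPM or more. The 10 genes and the other lists were chosen with earlier results of these data known. All 10 are named. From each other list the genes past 2-fold in both libraries are named, up to 4 per direction, except 1 that is not reported here, and for each of the 10 the most similar gene at a mean of 50 CPM or more. No doublet caller was run, and the sources used here do not state whether doublets were removed. Leaving out the 10% most mixed cells was an alternative. The interval code was tested on simulated data. Promoter sequences came from RefSeq (GRCm38.p6), in which all 10 genes were matched, and gene positions from the GENCODE annotation of GRCm38. Python 3.11.15, NumPy 2.4.6, SciPy 1.17.1, pandas 2.3.3, matplotlib 3.10.9, R 4.3.3 and edgeR 4.0.16 (TMM factors only) were used.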

Additional observations from a re-analysis of the deposited data

Results flagged for a closer look

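For 5 of the 10 genes, the log2 ratio of Ptbp1-KO over Ptbp1-Ctrl had opposite signs in different cell types, with counting intervals on either side of 0. Of 7603 genes at a mean of 10 CPM or more in all 5 types, 7.23% met the same rule, which is easier to meet for genes with more UMIs. With 1 library per genotype the differences between cell types were not tested. Hk2 had ratios of 0.17 in cones and -0.53 in MG. Aldoa had 0.18 in AC and -0.39 in rods, and Aldoc 0.17 in MG and -0.34 in rods. Pgk1 had 0.16 in MG and -0.74 in cones, and Eno1 0.21 in MG and -0.33 in rods.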

How the results depend on the processing

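Each value rests on 1 library per genotype, and the intervals hold counting error only. The call of Hk2 above inner neurons and those of Aldoc, Eno1 and Ldhb below MG were made under every alternative run for them. Of the 5 genes above MG, Pkm was not called with TMM factors, median-of-ratios size factors or the mean of per-cell CPM, and background subtraction added Aldoa. The count of genes below inner neurons, 1 with all cells (Ldhb), was 0 with equal weight of cell types and 0 without RGC and HC, an alternative chosen after seeing the data. The pairs past 0.5 between genotypes, 2 as reported, were 5 with cells thinned to 1000 UMIs (Hk2 in MG, Aldoc in rods, Pgk1 in cones, Ldha and Ldhb in BC). TMM and median-of-ratios factors added Pgk1 in rods, and background subtraction added Eno2 in MG and gave no value for Hk2 in MG, since none was left in Ptbp1-KO. They were 1 (Pgk1 in cones) without the 10% most mixed cells, 1 with the mean of per-cell CPM, and 1 with the same mix of clusters in both libraries, also chosen after seeing the data. The ratio of Hk2 in MG, -0.53 as reported, was -0.44, -0.46 and -0.49 in these last 3, so that it crossed the limit without a large move. Of the other genes of the pathway, 3 were above inner neurons as reported and 5 when all genes with a UMI were used. The cause of these changes was not tested. Median-of-ratios size factors moved the median ratio of all genes over MG from 0.06 and 0.11 to -0.06 in both libraries. No paired analysis was possible because each genotype had 1 library.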
